A study of Mus musculus with 6 samples.

Results

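The genes described here are 10 members of the glutathione and thioredoxin antioxidant systems: Gclc, Gclm, Gss, Gsr, Txnrd1, Txnrd2, Txn1, Gpx1, Gpx4 and Nfe2l2. They were chosen by name, through probe sets annotated with that gene symbol alone, and all 10 were among the 13632 genes tested. They were measured in Yap KO and Yap HET cardiomyocytes sorted from mouse hearts at stage E12.5, in mid-gestation, with 3 microarrays in each group described as biological replicates. Embryos of both groups came from crosses of TNTCre, a Cre recombinase driven by the cardiac troponin T promoter, Yap flox and R26 mTmG mice. The last of these is a reporter at the Rosa26 locus whose label changes to green where Cre has been active, so the green cells collected by flow cytometry are cells with a history of Cre activity. Both groups carried TNTCre, so Yap HET cells are the control and no group without Cre or with wild-type Yap is compared here. Hearts were digested one by one, and whether hearts were pooled is not stated in the sources used here. Levels below are linear intensities of 1 probe set a gene, and a change is the log2 level in Yap KO minus that in Yap HET cells, given with its standard error (SE). Adjusted p-values are those of limma after Benjamini-Hochberg adjustment across the 13632 genes, and a gene passed the test at 0.05.

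Glutathione is a tripeptide that cells use to reduce peroxides and to keep protein thiols reduced. It is made in 2 steps, by glutamate-cysteine ligase (catalytic subunit Gclc, modifier subunit Gclm) and by glutathione synthetase (Gss), is spent by glutathione peroxidases such as Gpx1 and Gpx4, and is regenerated by glutathione reductase (Gsr). In the parallel system, thioredoxin (Txn1) is regenerated by thioredoxin reductases, of which Txnrd1 is cytosolic and Txnrd2 mitochondrial, and both systems draw on NADPH. The transcription factor Nrf2, encoded by Nfe2l2, is held back by Keap1 and activates many of these genes through antioxidant response elements. In the embryonic heart these systems meet the peroxides made as mitochondrial respiration rises.

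Gclc and Txnrd2 were lower in Yap KO cells, and the other 8 genes did not pass the test. The calls were thus 2 falls and 0 rises among 10 genes. Across the 13632 genes, 9.93% changed, with 4.76% lower and 5.16% higher in Yap KO cells. At an unadjusted limma p under 0.05, 3 of the 10 were lower and 0 higher, beside 1962 lower and 1889 higher of the 13632 genes. The log2 changes ran from -0.35 for Gclc to 0.028 for Txn1, with a median of -0.08 beside -0.017 over all genes tested, and 8 of the 10 were below 0. Yap KO and Yap HET values did not overlap for Gclc, Txnrd1 and Txnrd2, each lower in Yap KO, and for 0 genes that were higher. Over all genes tested, 33.9% had groups that did not overlap, 17.2% with Yap KO below and 16.7% with Yap KO above. The 2 calls were close to the threshold, and they became 0 or 1 when any 1 array was left out.

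**Figure D1:**
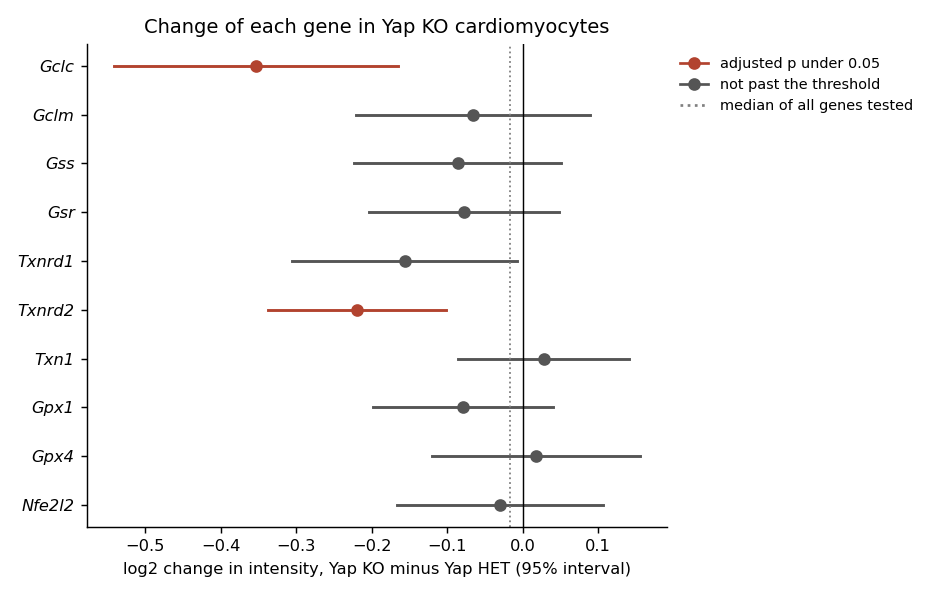
Log2 change in intensity (horizontal axis, Yap KO minus Yap HET) of the 10 genes, one per row, with 95% confidence intervals from limma; red marks an adjusted p under 0.05 and the dotted line the median of all genes tested. Gclc and Txnrd2 lie at -0.35 and -0.22, and among the other genes the interval of Txnrd1 alone stays below 0, with an upper end of -0.0068.

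As a check of the labels, the targeted gene Yap1 read 103, 84.7 and 86.6 on the Yap KO arrays and 886, 927 and 871 on the Yap HET arrays, a log2 change of -3.29 ± 0.08 (SE); where its probe set lies relative to the deleted part of the gene is not stated in the sources used here. Pik3cb, the PI3K catalytic subunit gene named in the title, fell (487 ± 10.1 in Yap KO and 617 ± 10.1 in Yap HET cells, log2 change -0.34 ± 0.05). Over all genes 704 rose and 649 fell, and with each array centred on its median 1055 rose and 339 fell. Cardiomyocyte markers were high in both groups, with a summed intensity of 45742 to 47864 on the Yap KO arrays and 47047 to 47584 on the Yap HET arrays, and 0 of 8 passed the test with limma (1 lower and 0 higher at an unadjusted p under 0.05). Other markers moved with the comparison. Of 8 mesenchymal, fibroblast and epicardial markers 4 rose (Pdgfra, Pdgfrb, Postn and Tcf21) and 0 fell, with sums of 4853 to 5888 in Yap KO and 3753 to 3828 in Yap HET cells. At an unadjusted p under 0.05, 6 of these were higher and 1 lower, the epicardial marker Tbx18 (log2 change -0.37 ± 0.14). Of 6 endothelial and endocardial markers 2 rose (Kdr and Nfatc1) and 0 fell, with sums of 1294.5 to 1389 in Yap KO and of 960.2 to 1046 in Yap HET cells (0 lower and 4 higher at an unadjusted p under 0.05). Sums of 5 erythroid markers were 493 to 2654 in Yap KO and 363 to 750.1 in Yap HET cells, with 0 calls with limma (0 lower and 1 higher at an unadjusted p under 0.05). Of 4 macrophage markers Lyz2 rose (log2 change 0.47 ± 0.11), and the sums were 1592 to 1780.2 in Yap KO and 1491 to 1807 in Yap HET cells. The other 3, Csf1r, Ptprc and Cd68, had log2 changes of -0.21, -0.17 and -0.72, each lower at an unadjusted p under 0.05 and without overlap between groups. The 4 smooth muscle and 2 neural markers gave 0 calls with limma (1 lower and 1 higher, and 0 and 0, at an unadjusted p under 0.05). Of 11 hypoxia response genes 8 rose (among them Egln3 and Bnip3) and 0 fell, with sums of 11075 to 12939.5 in Yap KO and 8783 to 9321 in Yap HET cells. Of 12 immediate early and dissociation genes 0 rose and 6 fell (among them Egr1 and Fos), with sums of 17904 to 19877 in Yap KO and 22879 to 23555 in Yap HET cells. The part of these shifts in the changes of Gclc and Txnrd2 was not tested. In sorted bulk RNA, fewer cells of a type and less RNA per cell cannot be told apart.

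Promoter windows of 8 of the 10 genes, from RefSeq on the mouse build GRCm38.p6, were searched for the core of the antioxidant response element, the site bound by Nrf2 with a small Maf protein, and for the site of the TEAD factors through which Yap acts. The promoters of Gclc and Gsr were not analysed here. A window runs from 250 bases before to 50 after an annotated start, and the 8 genes had 13 of them. The letters searched, on both strands, were TGACNNNGC for the antioxidant response element and GGAATG for TEAD, and no window of these genes held both. The 4 windows with a match are shown because they set the reductase gene that fell, Txnrd2, beside Nrf2 itself and 2 genes known as its targets. Each is written 5′ to 3′ with the match in capitals.
Txnrd2, chr16:18426167-18426466 (+ strand), TEAD letters on the opposite strand from base -191: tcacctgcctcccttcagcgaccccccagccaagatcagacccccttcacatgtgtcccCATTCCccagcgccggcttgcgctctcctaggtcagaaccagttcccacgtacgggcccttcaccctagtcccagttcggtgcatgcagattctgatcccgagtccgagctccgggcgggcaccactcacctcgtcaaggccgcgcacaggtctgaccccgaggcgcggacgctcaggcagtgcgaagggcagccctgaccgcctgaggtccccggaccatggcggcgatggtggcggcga
Txnrd1, chr10:82858956-82859255 (+ strand), antioxidant response element letters on the opposite strand from base -92: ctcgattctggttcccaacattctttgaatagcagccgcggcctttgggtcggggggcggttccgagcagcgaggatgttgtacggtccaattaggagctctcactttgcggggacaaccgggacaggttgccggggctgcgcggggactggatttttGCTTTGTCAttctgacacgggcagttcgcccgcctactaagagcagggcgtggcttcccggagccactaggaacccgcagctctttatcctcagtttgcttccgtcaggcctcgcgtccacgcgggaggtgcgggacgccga
Gclm, chr3:122245307-122245606 (+ strand), antioxidant response element letters on the opposite strand from base -134: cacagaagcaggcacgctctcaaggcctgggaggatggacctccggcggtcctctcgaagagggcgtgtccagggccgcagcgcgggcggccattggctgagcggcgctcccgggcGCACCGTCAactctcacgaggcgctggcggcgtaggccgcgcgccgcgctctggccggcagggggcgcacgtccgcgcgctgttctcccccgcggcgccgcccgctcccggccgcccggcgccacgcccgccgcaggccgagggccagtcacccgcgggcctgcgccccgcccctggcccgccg
Nfe2l2, chr2:75704614-75704913 (- strand), antioxidant response element letters on the printed strand from base -240: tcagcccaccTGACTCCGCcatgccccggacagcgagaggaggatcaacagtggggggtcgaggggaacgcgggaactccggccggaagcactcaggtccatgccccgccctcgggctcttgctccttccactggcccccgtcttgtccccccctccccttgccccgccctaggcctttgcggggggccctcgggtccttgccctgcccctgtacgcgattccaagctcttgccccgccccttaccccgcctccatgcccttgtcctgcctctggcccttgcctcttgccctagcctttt
The antioxidant response element letters were thus found in 3 of 8 genes and the TEAD letters in 1 of 8. Over all 26994 genes with a window these letters occurred in 14.0% and 16.6% of genes. Counted by window, they were in 3 and 1 of the 13, beside 12.4% and 14.7% of all 32817 windows. A match is a description of letters and not a binding site. The 3 genes with antioxidant response element letters, Gclm, Txnrd1 and Nfe2l2, are among the 8 that did not pass the test. Of the genes that fell, Txnrd2 alone was searched and Gclc was not, so these letters cannot be compared between called and uncalled genes.

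Glutathione synthesis was represented by Gclc, Gclm and Gss. Gclc, the catalytic subunit of the rate-limiting enzyme, on chromosome 9, read 450.5, 397 and 441 on the Yap KO arrays and 568, 588 and 494 on the Yap HET arrays. All 3 Yap KO values lay below the lowest Yap HET value, which was that of replicate 3. The means were 429.8 ± 28.4 in Yap KO and 549.9 ± 49.7 in Yap HET cells (SD, n = 3 each), a log2 change of -0.35 ± 0.08 (SE; limma adjusted p = 0.035) or a 1.28-fold lower level, with a 95% interval of -0.54 to -0.17. The call ended without Yap HET replicate 1 or 2 or any Yap KO array, with changes of -0.43 to -0.30 and limma adjusted p-values of 0.025 to 0.13 over the 6 arrays left out in turn. It also ended when each array was centred on its median (log2 change -0.29, limma adjusted p = 0.063).

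Gclm, the modifier subunit that raises the efficiency of the ligase, on chromosome 3, read 821, 789.9 and 820.5 in Yap KO and 928, 827 and 794 in Yap HET cells. The groups overlapped, and Yap HET replicate 1 stood above the other 5 arrays. The log2 change was -0.066 ± 0.07 (SE; limma adjusted p = 0.56), with a 95% interval of -0.22 to 0.090. Gss, the second enzyme of the pathway, on chromosome 2, read 288, 295 and 289 in Yap KO and 306, 330.45 and 291 in Yap HET cells. Yap HET replicate 3 lay between the Yap KO arrays, and the other Yap HET arrays lay above all of them. Its log2 change was -0.086 ± 0.06 (SE; limma adjusted p = 0.38), with a 95% interval of -0.22 to 0.051.

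The 2 ligase subunits were also compared within each array. The log2 difference of Gclc minus Gclm was -0.87, -0.99 and -0.89 in Yap KO and -0.71, -0.49 and -0.68 in Yap HET cells, so that the groups did not overlap. Yap KO minus Yap HET was -0.29 ± 0.08 (SE, log2), with a two-sided exact permutation p of 0.1, the smallest that 3 arrays against 3 allow, and 0.15 adjusted over the 3 pairs compared. Gclc minus Gss differed by -0.27 ± 0.08 (exact permutation p = 0.1, adjusted 0.15). The design could not reach 0.05 in this test, and an unequal change of Gclc and its partners was therefore not established by it.

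**Figure D2:**
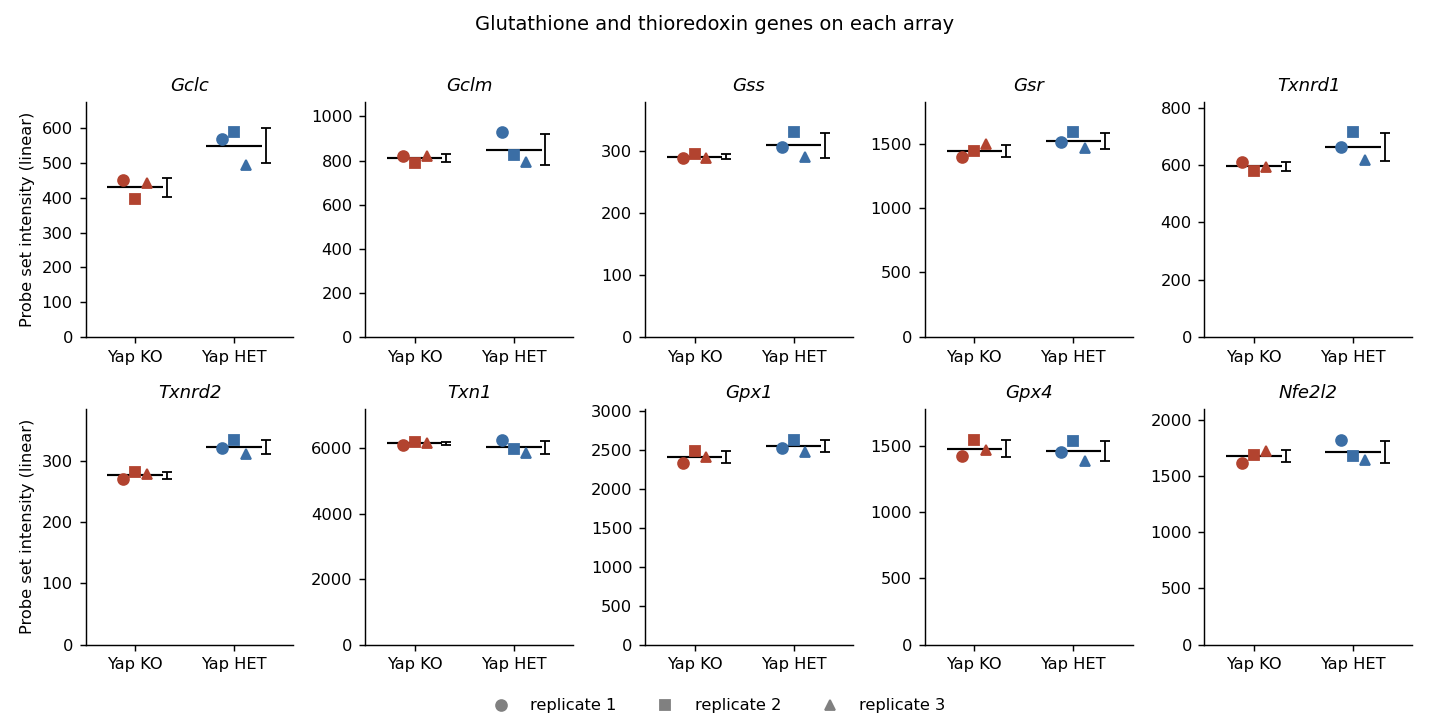
Probe set intensity (vertical axis, linear scale from 0) of each of the 10 genes on the 3 Yap KO and 3 Yap HET arrays; symbols mark the replicates, horizontal lines the means and bars 1 SD. The Yap KO points of Gclc, Txnrd1 and Txnrd2 all lie below the Yap HET points, and the points overlap for the other 7 genes.

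The thioredoxin reductases are selenoenzymes that return oxidised thioredoxin to its reduced form. Txnrd2, the mitochondrial enzyme, on chromosome 16, read 271, 282 and 279 in Yap KO and 322, 335 and 312 in Yap HET cells. The groups were separated by a gap larger than the range of the Yap KO values, and the SDs were small (277 ± 5.53 in Yap KO and 323 ± 11.5 in Yap HET cells, n = 3 each). The log2 change was -0.22 ± 0.05 (SE; limma adjusted p = 0.036) or a 1.16-fold lower level, with a 95% interval of -0.34 to -0.10. Leaving out any 1 of the 6 arrays ended the call, with changes of -0.24 to -0.19 and limma adjusted p-values of 0.052 to 0.12, and under median centring (log2 change -0.16, limma adjusted p = 0.20).

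Txnrd1, the cytosolic reductase, on chromosome 10, read 611, 581 and 594 in Yap KO and 662, 714 and 616 in Yap HET cells. The groups did not overlap, and the lowest Yap HET array, replicate 3, lay next to the highest Yap KO array, replicate 1. The log2 change was -0.16 ± 0.06 (SE) with a 95% interval of -0.31 to -0.0068, so that it missed the threshold (limma adjusted p = 0.16). The log2 difference of Txnrd2 minus Txnrd1 was -1.17, -1.04 and -1.09 in Yap KO and -1.04, -1.09 and -0.98 in Yap HET cells. These groups overlapped (difference -0.064 ± 0.05 SE, exact permutation p = 0.3, adjusted 0.3), so the call for Txnrd2 and not for Txnrd1 does not show that the 2 reductases changed differently.

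Their substrate Txn1, the cytosolic thioredoxin, on chromosome 4, read 6102, 6176 and 6165 in Yap KO and 6251, 5979.9 and 5863 in Yap HET cells. The Yap KO values lay inside the range of the Yap HET values. The log2 change was 0.028 ± 0.05 (SE; limma adjusted p = 0.75), with a 95% interval of -0.085 to 0.14. RefSeq lists the pseudogene Txn-ps1, and a share of it in this signal cannot be told apart.

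Gsr, the reductase that regenerates glutathione, on chromosome 8, read 1395, 1439.5 and 1494 in Yap KO and 1515, 1588 and 1466 in Yap HET cells. Yap HET replicate 3 was below the highest Yap KO array. Gsr differed on the log2 scale by -0.078 ± 0.05 (SE; limma adjusted p = 0.39), with a 95% interval of -0.20 to 0.049.

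Both glutathione peroxidases among the 10 genes are selenoenzymes. Gpx1, which reduces hydrogen peroxide in the cytosol and mitochondria, on chromosome 9, read 2339.6, 2486 and 2409 in Yap KO and 2532, 2631 and 2477 in Yap HET cells. The groups overlapped by 1 array each, Yap KO replicate 2 and Yap HET replicate 3. Gpx1 differed on the log2 scale by -0.079 ± 0.05 (SE; limma adjusted p = 0.36), with a 95% interval of -0.20 to 0.041. Gpx4, which reduces lipid peroxides in membranes and guards against ferroptosis, on chromosome 10, read 1421, 1545 and 1467 in Yap KO and 1454, 1536 and 1389 in Yap HET cells. The groups were interleaved, with a log2 change of 0.018 ± 0.06 (SE; limma adjusted p = 0.87) and a 95% interval of -0.12 to 0.16. A second Gpx4 probe set read 1312, 1417 and 1356 in Yap KO and 1329, 1413 and 1276 in Yap HET cells, a log2 change of 0.024. RefSeq lists 2 Gpx4 pseudogenes, Gpx4-ps1 and Gpx4-ps2, so the Gpx4 signal is uncertain.

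Nfe2l2, the gene of Nrf2, on chromosome 2, read 1619.6, 1693 and 1725 in Yap KO and 1825, 1678 and 1643 in Yap HET cells. The highest value was that of Yap HET replicate 1, and the other 5 arrays were interleaved. The log2 change was -0.030 ± 0.06 (SE; limma adjusted p = 0.78), with a 95% interval of -0.17 to 0.11. Nrf2 is controlled largely at the level of the protein, which these arrays do not measure. The direction of Nfe2l2 turned to 0.032 under median centring, that of Txn1 to -0.014 with array weights, and that of Gpx4 to -0.014 without Yap KO replicate 2, and none of these passed the threshold.

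Set side by side, the 10 genes differed among arrays within a group as well as between groups. Yap HET replicate 2 held the highest value of 6 genes, Yap HET replicate 1 of 3 and Yap KO replicate 2 of 1. Yap KO replicate 1 held the lowest value of 5 genes, Yap KO replicate 2 of 3 and Yap HET replicate 3 of 2. The mean deviation of the 10 genes from their own 6-array means was -0.064, -0.052 and -0.037 on the Yap KO arrays and 0.079, 0.098 and -0.024 on the Yap HET arrays (log2). The medians over all genes were 0.012, -0.0082 and -0.016 on the Yap KO arrays and 0.011, 0.021 and -0.019 on the Yap HET arrays. Yap HET replicate 3 was thus nearer to the Yap KO arrays than to the other Yap HET arrays in this mean. Gclc had the largest SD within groups, 0.117 on the log2 scale, and Txn1 the smallest, 0.034, beside a median of 0.080 over all genes tested.

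**Figure D3:**
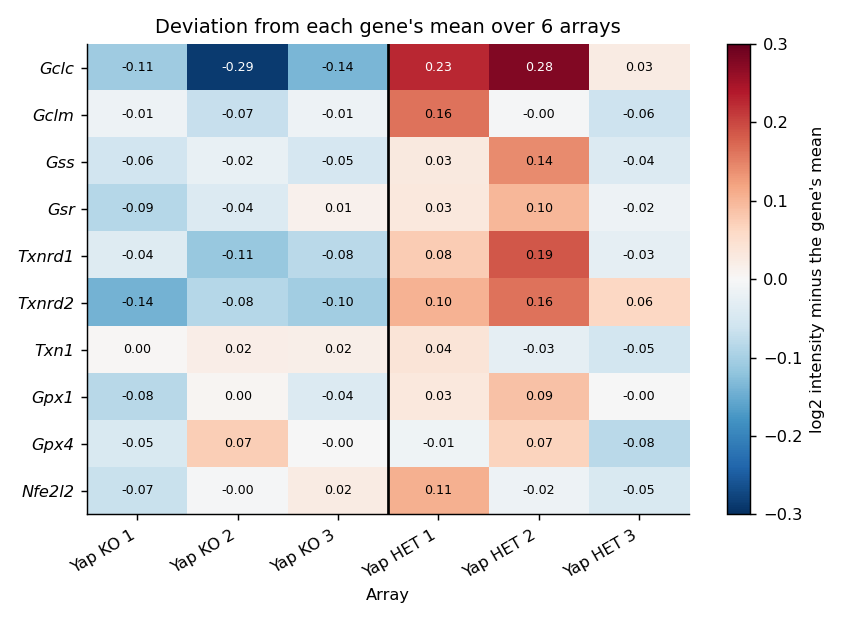
Log2 intensity of each gene (rows) on each array (columns) minus that gene's mean over the 6 arrays, in colour and in figures; the black line divides Yap KO from Yap HET arrays. Gclc, Gclm, Gss, Txnrd1 and Txnrd2 are below their means on every Yap KO array. The mean deviation of the 10 genes is above 0 in the columns of Yap HET replicates 1 and 2 (0.079 and 0.098) and below 0 in the other 4.

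The wider antioxidant lists held changes in both directions, and few of their genes passed the test. Of 119 genes tested on 11 lists, which include the 10 genes above, 6 rose and 6 fell, which is 10.1% against 9.93% of all genes tested. Without the 10 genes, 6 of 109 rose and 4 fell, with a median log2 change of 0.031. In the list of Nrf2 target genes 2 of 24 tested fell and 0 rose with limma (3 lower and 4 higher at an unadjusted p under 0.05), with a median of 0.027. The list names 30 genes. Nqo1, Slc7a11, Osgin1 and Cbr3 were under the intensity filter, and G6pdx and Akr1b3 had no probe set under that symbol alone, so these were not tested. The falls were Gclc and Abcc4, a transporter that exports cyclic nucleotides and conjugates (134 ± 10.7 in Yap KO and 169.9 ± 8.44 in Yap HET cells, log2 change -0.35 ± 0.07, limma adjusted p = 0.026). The call of Abcc4 held without Yap KO replicate 3 or Yap HET replicate 2 and ended without each of the other 4 arrays. Of 13 genes that make up or regulate Nrf2, 0 passed the test with limma (2 lower and 2 higher at an unadjusted p under 0.05). Those with the smallest p were Maff, a small Maf partner of Nrf2 (-0.24 ± 0.07, limma adjusted p = 0.057), and Bach1, a repressor that competes for the same elements (0.14 ± 0.05, limma adjusted p = 0.12).

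Glutathione transferases, which conjugate glutathione to electrophiles, included changes in both directions. Of 19 tested, 3 fell and 1 rose, and the median log2 change was -0.0062. Gstm2, a mu-class transferase, read 456 ± 34.2 in Yap KO and 623 ± 53.1 in Yap HET cells (log2 change -0.45 ± 0.08, limma adjusted p = 0.016), and this value is uncertain where near-identical mu-class genes share probes. Gsto1, an omega-class enzyme, fell by 0.42 ± 0.10 (SE) on the log2 scale (limma adjusted p = 0.033) and Gstcd, which carries a transferase-like domain, by 0.24 ± 0.06 (limma adjusted p = 0.039). Mgst3, a microsomal transferase, rose, at 940.5 ± 40.4 in Yap KO and 723 ± 72.0 in Yap HET cells (log2 change 0.38 ± 0.08, limma adjusted p = 0.024). Gstm2 kept its call without 5 of the 6 arrays and lost it without Yap KO replicate 2. Gsto1 kept its call without 2 of the arrays, Mgst3 without 2 and Gstcd without 1.

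In the other lists of peroxide and disulphide metabolism the one further call was in Prdx4, the peroxiredoxin of the endoplasmic reticulum, which read 1219 ± 29.3 in Yap KO and 1006 ± 64.0 in Yap HET cells (log2 change 0.28 ± 0.06, limma adjusted p = 0.029), 1 of 4 peroxiredoxins tested. Its call held when Yap HET replicate 2 was left out and ended for each of the other 5 arrays. Of 13 genes of glutathione synthesis and turnover Gclc was the 1 call, and of 16 genes of the thioredoxin system Txnrd2. Of 5 glutathione peroxidases 0 passed with limma (0 lower and 1 higher at an unadjusted p under 0.05), Gpx7 having the smallest p (0.22 ± 0.07, limma adjusted p = 0.087). Of 5 glutaredoxins and glutathione reductase 0 passed (1 lower and 0 higher at an unadjusted p), with Glrx at -0.14 ± 0.05 (limma adjusted p = 0.11) and Glrx3 at 0.25 ± 0.11 (limma adjusted p = 0.19). Of 4 superoxide dismutases, their copper chaperone and catalase together, 0 passed and 0 had an unadjusted limma p under 0.05, with Ccs at 0.062 ± 0.05 (limma adjusted p = 0.48) and Sod2 at -0.051 ± 0.05 (limma adjusted p = 0.55).

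**Figure D4:**
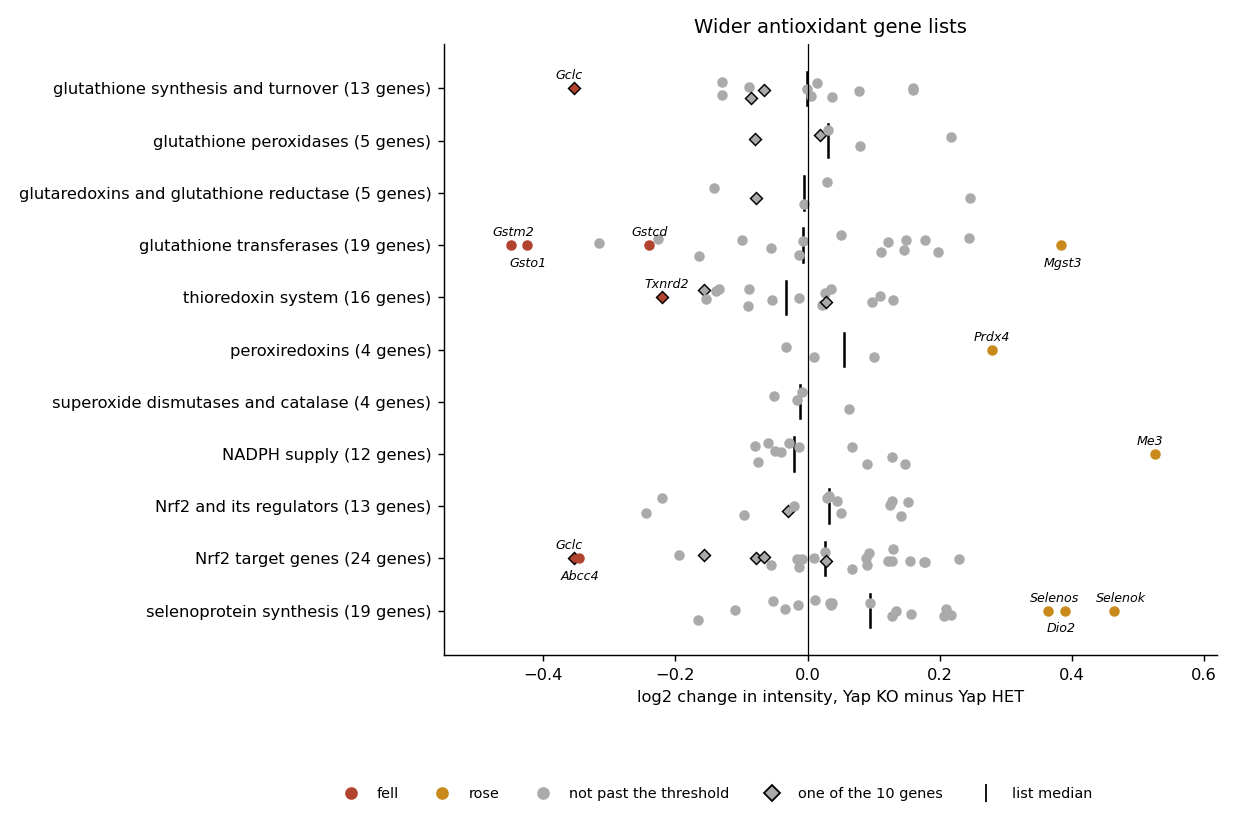
Log2 change in intensity (horizontal axis, Yap KO minus Yap HET) of every tested gene of 11 antioxidant lists (rows). Each point is a gene on that list, diamonds are the 10 genes described above and vertical bars the list medians. A gene on several lists is drawn in each of its rows, as Gclc is. Counting every gene once, 6 of 119 are coloured as falls and 6 as rises, and the list medians lie between -0.033 and 0.094.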

How the data were processed

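RNA of sorted cardiomyocytes was hybridised to 6 Affymetrix mouse gene arrays. The authors deposited 1 intensity per probe set and array, linear and between 2e-05 and 15701. RMA is named, without a version, per the submitters' processing notes; RMA usually returns log2 values, and the step back to a linear scale is not stated in the sources used here. Log2 was taken before testing. Of 35556 probe sets, 21789 had 1 gene symbol, 1621 several and 12146 none in the platform annotation; symbols were updated through a RefSeq table of GRCm38.p6, which matched 21698. For each gene the probe set with the highest mean was used, and genes under the 40th percentile of means (intensity 85.7) were left out, which kept 13632 genes. No detection call was used. Groups were compared with limma 3.58.1 in R 4.3.3, group as the only term. The number of arrays limits the precision. Limma p-values rest on the spread within these 3 and 3 samples, drawn towards a prior spread fitted over all genes tested.

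The fit was also run on simulated data. In these, 200 of 13632 genes were changed, 50 at each size. Noise was normal and independent between arrays, and the SDs were shuffled over genes. The fit recovered 26%, 70%, 94% and 100% of changes of 0.25, 0.5, 1 and 2 on the log2 scale. These shares belong to that setting and do not give the power in the real arrays. Alternatives covered the filter, the choice of probe set, an offset of 16, normalization, the prior, weighting of arrays, a block for the replicate number, an unmoderated model and each array left out. Replicate numbers were not treated as pairs. The 10 genes, the lists and the tests were chosen with earlier results of these data known. The text names the 10 genes, Yap1, Pik3cb, list members past the threshold and, in lists without any, those with the smallest p; for marker and state lists it names only some of the called genes. The within-array pairs, the genes named for their annotation and Tbx18, Csf1r, Ptprc and Cd68 were chosen after values were seen.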

Additional observations from a re-analysis of the deposited data

How the results depend on the processing

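Of 18 alternatives, Gclc kept its adjusted p under 0.05 in 8 and Txnrd2 in 7, and both kept their direction in all 18. None of the 10 genes was higher at an adjusted p under 0.05 in any of the 18. The number lower at that threshold was 2, and it was 0 without the filter, with every probe set tested, under median centring, with the replicate block and in the unmoderated linear model, 4 with array weights (Gclm and Txnrd1 added), and 0 to 1 with 1 array left out. The number of genes past the threshold, 1353, became 508 without the filter, 872 with every probe set, 2246 with a trended and robust prior, 4617 with array weights, 698 with the replicate block and 231 in the unmoderated model, and ranged over 433 to 1375 with 1 array left out; leaving out Yap KO replicate 2 gave 433, Yap HET replicate 1 gave 434, Yap HET replicate 3 gave 689 and Yap KO replicate 3 gave 700. With the replicate block the limma adjusted p was 0.076 for Gclc and 0.090 for Txnrd2. Over genes, deviations from the group mean correlated at -0.076, -0.17 and 0.12 between Yap KO and Yap HET arrays of the same number. Between arrays of different numbers these correlations ran from -0.23 to 0.28, so the numbers were not taken as pairs. Signs also turned for Gpx4 without Yap HET replicate 3 (-0.017) and for Nfe2l2 without Yap HET replicate 1 (0.016). On the wider lists, in a count added after seeing the data, 6 rises became 1 to 7 and 6 falls 0 to 3 with 1 array left out, and 0 to 20 and 0 to 17 under the other 12 alternatives (both 0 in the unmoderated model, 20 and 17 with array weights, 3 and 1 with the replicate block, 2 and 0 without the filter). The cause of these shifts was not tested. With 3 arrays a group and no detection calls, changes as small as those of Gss or Gpx1 were not resolved.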

Other observations

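Genes that supply NADPH to both systems gave 1 call among 12 tested. Me3, the mitochondrial malic enzyme that makes NADPH, read 314, 309 and 270.3 in Yap KO and 223, 215 and 183 in Yap HET cells, so the groups did not overlap (log2 change 0.53 ± 0.09, limma adjusted p = 0.014). It kept its call without 5 of the 6 arrays and lost it without Yap KO replicate 2.

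On a list of 19 genes of selenoprotein synthesis and other selenoproteins, 3 rose and 0 fell, with a median log2 change of 0.094. The calls are 15.8% of the list, against 9.93% of all genes tested. At an unadjusted limma p under 0.05, 1 was lower and 6 were higher. The list leaves out selenoproteins placed on other lists, among them Txnrd1, Txnrd2, Gpx1 and Gpx4 described above, of which Txnrd2 fell. Gpx3, Txnrd3 and Msrb1 are also left out, with log2 changes of 0.079, -0.053 and -0.088, and did not pass the test. The share and median are thus those of a part of the selenoproteins. Dio2, the deiodinase that activates thyroid hormone, read 144, 131 and 141 in Yap KO and 97.6, 107 and 113 in Yap HET cells (0.39 ± 0.07, limma adjusted p = 0.015), and kept its call without 4 of the 6 arrays. Selenok and Selenos, selenoproteins of the endoplasmic reticulum membrane, rose by 0.46 ± 0.10 and 0.36 ± 0.08 on the log2 scale (limma adjusted p = 0.030 and 0.036), and kept their calls without 1 and 2 of the arrays.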
